A study of Mus musculus with 12 samples.

Results

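The miR-15 family is a set of microRNAs that share a seed, the bases at the 5′ end that choose target messages. Its members miR-15a-5p (mmu-miR-15a-5p in the table), miR-15b-5p, miR-16-5p (mmu-miR-16-5p), miR-195a-5p (written mu-miR-195a-5p) and miR-497-5p were picked by name, and all 5 were found among the 504 microRNAs measured by quantitative RT-PCR in epididymal fat of male C57BL/6J mice. Each was measured in all 12 pools. The 4 groups held 3 pools from 12 mice each, with termination at 23 weeks. WL mice had the high-fat diet (D12451, 45% of energy as fat, 35% as carbohydrate, 20% as protein) from mating of the parents to the end. UL mice had it from mating to weaning, and UT mice only in utero, through the dam. CD mice had the control diet (D12450H, 10% fat, 70% carbohydrate, 20% protein). All groups were wild type, and the parents ate a standard breeding diet before mating. The sources used here do not give how the 12 mice of a group and their litters were shared among pools, so p-values measure the spread between pools. The UL and WL columns of the authors' deposited table of fold changes match pools with other labels, and whether the labels or those headings are right was not settled. Every group value below follows the pool labels.

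MicroRNAs of this family pair with messages for cyclins, cyclin-dependent kinases and other drivers of the step from G1 into S phase, and they are known as brakes on cell division. They are also known to repress the survival factor BCL2. In mammals the family is encoded in clusters: miR-15a with one copy of miR-16, miR-15b with the other copy, and miR-497 with miR-195a. Epididymal fat is a mixed tissue of adipocytes, vessel, stromal and immune cells, in which microRNAs of many cell types are read together.

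The mature sequences are shown because the members differ only outside a shared seed, and because the result on miR-16-5p and miR-195a-5p concerns the most alike pair. They are from RefSeq, written 5′ to 3′, with the seed (bases 2 to 8) in capitals.
miR-15a-5p: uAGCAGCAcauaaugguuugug
miR-15b-5p: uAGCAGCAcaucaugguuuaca
miR-16-5p: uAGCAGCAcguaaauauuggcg
miR-195a-5p: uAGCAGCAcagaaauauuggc
miR-497-5p: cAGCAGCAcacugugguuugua

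The coordinates of the mature strands are those of GRCm38.p6. miR-15a-5p lies at chr14:61632075-61632096 (minus strand) within Dleu2, where the strand of Mir16-1 lies at chr14:61631936-61631957. The gap between them is 117 bases. miR-15b-5p lies at chr3:69009775-69009796 (plus strand) within Smc4, 121 bases from the Mir16-2 copy at chr3:69009918-69009939. The 2 copies of miR-16-5p give 1 mature sequence, so 1 assay reads both. miR-497-5p at chr11:70234730-70234751 (plus strand) and miR-195a-5p at chr11:70235062-70235082 (plus strand) are 310 bases apart, and no gene that spans them is listed. miR-16-5p and miR-195a-5p matched at 19 of 21 positions, the highest share of the 10 pairs. miR-15a-5p and miR-15b-5p matched at 18 of 22, and miR-16-5p and miR-497-5p, the least alike, at 11 of 22. Whether the assays for such close sequences detect each other's template was not tested.

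A threshold cycle (Ct) is the PCR cycle at which product crosses a set level, and more template gives a lower Ct. The relative level used here is the mean Ct of a pool over 466 microRNAs minus the Ct of the assay, so 1 unit is 1 cycle or log2 step, and a higher value is more RNA. Median Ct per pool ran from 24.59 to 25.26, and 492 to 506 assays gave a value in a pool. The microRNAs that mark endothelium (miR-126a-3p and miR-126a-5p) and those abundant in fat (miR-26a-5p, miR-30a-5p, miR-143-3p and miR-196a-5p) came early, at mean Ct 17.1 to 20.4, while the 3 liver markers came at mean Ct 24.2 to 25.8. No microRNA in the lists is exclusive to adipocytes. In bulk tissue, fewer cells of a type and less RNA per cell cannot be told apart.

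The family spanned a wide range of levels. miR-16-5p, the member best known from blood cells, was the 12th highest of 504 microRNAs by mean level, with Ct values between 16.89 and 18.52. miR-195a-5p was 45th, miR-15a-5p 48th, miR-15b-5p 79th and miR-497-5p 248th. These places compare different assays, whose efficiencies the sources used here do not give. Within groups the members' SD was 0.41 to 0.50 cycles, against a median of 0.52 over the 466 complete microRNAs.

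miR-16-5p had relative levels of 8.01, 7.05 and 6.92 in WL, 6.86, 7.27 and 6.99 in UL, 6.82, 7.11 and 7.89 in UT, and 6.91, 7.27 and 6.37 in CD. The groups overlapped throughout, and WL 1 and UT 3 were the highest pools. Levels of miR-15a-5p, its partner on chromosome 14, were 5.69, 5.35 and 5.68 in WL, 5.93, 5.06 and 4.73 in UL, 5.16, 4.81 and 4.40 in UT, and 5.18, 5.62 and 4.82 in CD. Again every group overlapped CD, and UT 3 was the lowest pool. miR-15b-5p, encoded beside the other miR-16 copy, reached 4.68, 3.75 and 4.29 in WL, 4.01, 3.63 and 3.59 in UL, 4.62, 4.29 and 3.66 in UT, and 3.42, 4.23 and 3.80 in CD. No group stood clear of CD for this member either.

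miR-195a-5p, known in mouse heart for stopping cell division after birth, measured 5.91, 4.79 and 4.36 in WL, 5.24, 5.50 and 5.43 in UL, 4.90, 5.65 and 5.68 in UT, and 5.77, 6.08 and 5.34 in CD. WL 2 and WL 3 lay below every CD pool, but WL 1 lay among them. miR-497-5p, from the same cluster, measured 0.39, -0.12 and 1.35 in WL, -0.12, -0.49 and -0.69 in UL, -0.52, 0.05 and -0.98 in UT, and -0.28, -0.27 and -0.65 in CD. Each of the 3 WL pools exceeded every CD and UL pool, WL 3 by the most, though WL 2 and UL 1 were equal to 2 decimals.

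**Figure D1:**
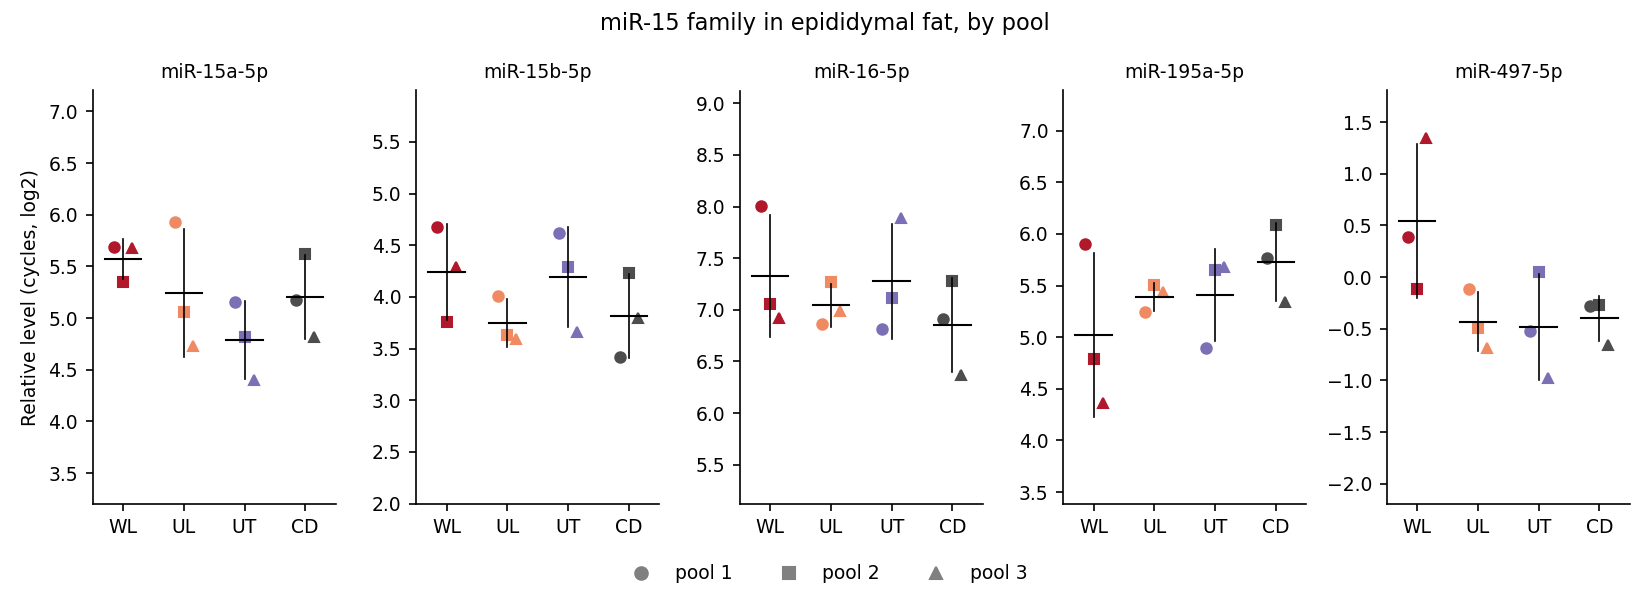
Relative level (mean Ct of the pool minus Ct, in cycles on the log2 scale) of each family member in 3 pools of WL, UL, UT and CD. Symbols are pools, horizontal lines group means and vertical lines ± 1 SD. Each panel spans the same number of cycles, and miR-497-5p is the 1 member whose WL pools lie clear of CD.

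By group mean, WL was highest for miR-15a-5p (5.57 ± 0.19), miR-15b-5p (4.24 ± 0.46), miR-16-5p (7.33 ± 0.59) and miR-497-5p (0.54 ± 0.75; SD, n = 3 each). For miR-195a-5p the order ran the other way, with WL lowest at 5.02 ± 0.80 and CD highest at 5.73 ± 0.38 (SD, n = 3 each). Neighbouring groups in each order differed by less than the within-group SD, except WL and the next group, CD, for miR-497-5p, with a gap of 0.94 against an SD of 0.49. miR-15a-5p was lowest in UT, and miR-15b-5p lowest in UL.

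None of the 5 members passed the test in WL against CD (limma, adjusted p up to 0.05), where 0.595% of all microRNAs did. For miR-497-5p the log2 fold change was 0.94 (SE 0.41, 95% interval 0.05 to 1.83), with an unadjusted p of 0.041 and an adjusted p of 0.608 in limma. At an unadjusted p under 0.05 it was 1 of 5 members, against 7.14% of all microRNAs. Non-overlap with WL above CD was seen in 1 of 5 members and in 5.82% of all microRNAs. Without WL 3 the log2 fold change of miR-497-5p was 0.55, below the 0.94 with all pools. miR-16-5p had 0.48 (-0.40 to 1.36), miR-15b-5p 0.42 (-0.38 to 1.22) and miR-15a-5p 0.37 (-0.45 to 1.19). Leaving out 1 pool at a time, these ran from 0.14 (without WL 1) to 0.69 for miR-16-5p, from 0.20 (without WL 1) to 0.67 for miR-15b-5p and from 0.17 (without CD 3) to 0.58 for miR-15a-5p. The lone member below 0 was miR-195a-5p, at -0.71 (-1.62 to 0.20). Its value was -0.37 without WL 3 and -1.15 without WL 1. Thus 4 of 5 members were above 0, as were 43.5% of all microRNAs, and the median of the 5 was 0.42, beside -0.06 over all.

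UL against CD gave smaller values. The 5 log2 fold changes ran from -0.34 for miR-195a-5p to 0.19 for miR-16-5p, all at an adjusted p of 0.995 in limma, with 0 of 5 members called against 0.595% of all microRNAs. None had an unadjusted p under 0.05, against 2.78% of all. miR-15a-5p had 0.04, miR-497-5p -0.03 and miR-15b-5p -0.07. The 95% intervals reached from -1.24 to 1.07, so changes of up to about a doubling lie inside them. The median of the members was -0.03, and that of all microRNAs -0.07.

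In UT against CD, miR-16-5p had a log2 fold change of 0.42, miR-15b-5p 0.37, miR-497-5p -0.08, miR-195a-5p -0.32 and miR-15a-5p -0.41. None passed (limma, adjusted p 0.799 to 0.978), against 1.39% of all microRNAs, and none had an unadjusted p under 0.05, against 10.1%. Both members of the chromosome 3 cluster were above 0 and miR-15a-5p was below, but with RNU-43 as the reference, which moved the median of all microRNAs to 0.73, miR-15a-5p was at 0.33, miR-195a-5p at 0.42 and miR-497-5p at 0.66. Leaving out 1 pool took miR-16-5p as low as 0.12 (without UT 3) and miR-15b-5p as low as 0.17 (without UT 1), and brought miR-195a-5p to -0.057 (without UT 1) and miR-15a-5p to -0.21 (without CD 2). The 3 comparisons with CD share its pools and are not independent.

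Between the exposures, WL against UL gave 0.97 for miR-497-5p (SE 0.41, unadjusted p 0.0358, adjusted p 0.805 in limma), and 0.59 without WL 3. Its WL pools all lay above the UL pools, though WL 2 and UL 1 were equal to 2 decimals. Such non-overlap held for 6.38% of microRNAs. The other members ran from -0.37 for miR-195a-5p, which was at -0.023 without WL 3 and -0.82 without WL 1, to 0.49 for miR-15b-5p, which was at 0.28 without WL 1. UL against UT gave 0.45 for miR-15a-5p and -0.45 for miR-15b-5p, with the other 3 members between -0.23 and 0.05. Without UL 1 the value of miR-15a-5p was 0.11, and without UT 1 that of miR-15b-5p was -0.23. No member was called in either comparison, and neither was any other microRNA (0.0% in limma). At an unadjusted p under 0.05 the share of all microRNAs was 5.36% and 7.94%. The F test over the 4 groups called 0 of 5 members (limma, adjusted p 0.608 to 0.912), against 0.397% of all. At an unadjusted p under 0.05 it called none of the 5 and 9.92% of all.

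**Figure D2:**
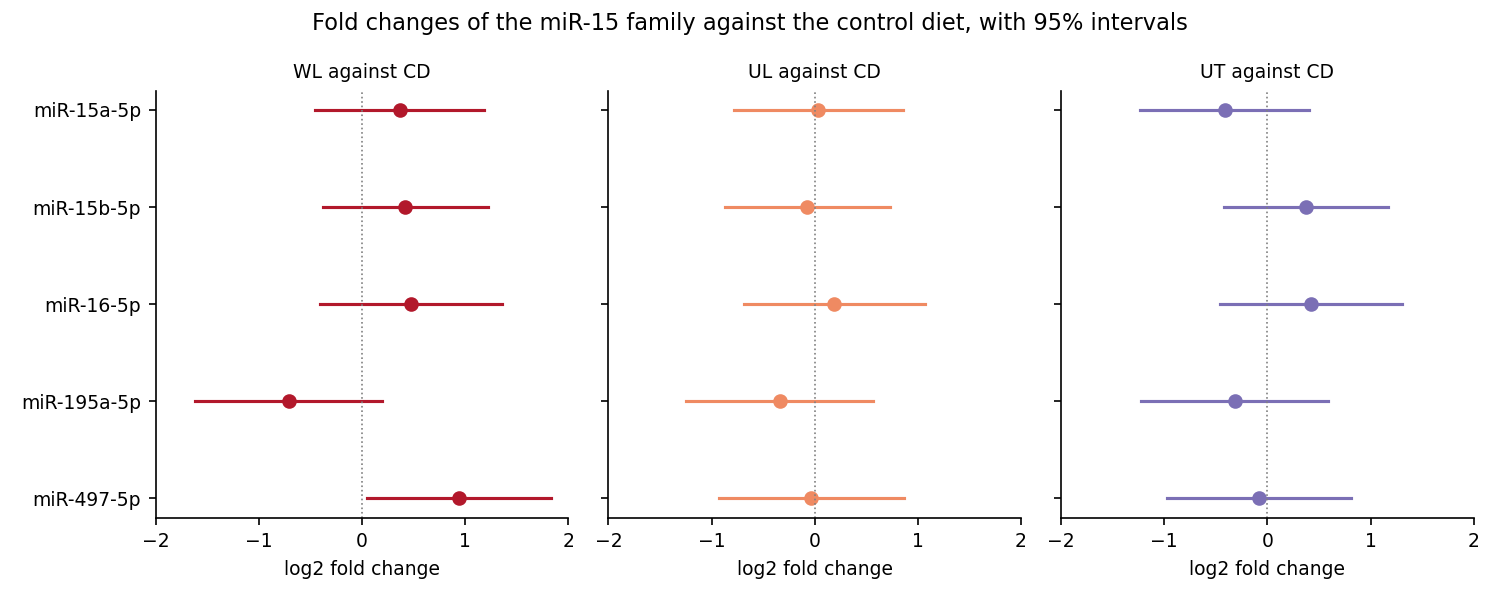
Log2 fold change of each member against CD in WL, UL and UT (points) with 95% intervals (lines) from limma. In WL 4 of 5 members are above 0 and miR-195a-5p is below, and the only interval clear of 0 is that of miR-497-5p in WL.

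The members were also compared with each other within pools. The Ct of one assay minus the Ct of another in the same pool is a log2 ratio that no scaling between pools can alter. The ratio of miR-16-5p to miR-195a-5p was 2.10, 2.26 and 2.56 in WL, 1.62, 1.77 and 1.56 in UL, 1.92, 1.46 and 2.21 in UT, and 1.14, 1.19 and 1.03 in CD. All 9 pools with the high-fat diet at any time lay above all 3 CD pools. Group means (± SD, n = 3 each) were 2.31 ± 0.23 in WL, 1.65 ± 0.11 in UL, 1.86 ± 0.38 in UT and 1.12 ± 0.08 in CD. The mean difference from CD was 1.19 in WL, 0.74 in UT and 0.53 in UL, each with an SE of 0.19 from the spread within the 4 groups. If product doubles in each cycle, these are ratios 2.28, 1.67 and 1.44 times that in CD. The groups differed by an exact permutation test (p = 0.00227, adjusted p = 0.0227 over 10 pairs, where the smallest p possible is 6.49e-05), and this was the 1 pair of 10 to pass.

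The test is over the 4 groups together, so it does not say which pair of groups differs, and UT overlapped both UL and WL. In each of WL, UL and UT, miR-16-5p lay above CD and miR-195a-5p below it, by group mean, though neither passed alone. Among all 108345 pairs of complete microRNAs, 1.18% had the 9 high-fat pools all on one side of the CD pools, and 0.493% had a between-group F at least as large. Of the 10 family pairs, 1 did so. The call was lost without WL 2 (adjusted p = 0.0539 in the exact test), WL 3 (0.0701), CD 1 (0.061), CD 2 (0.0558) or CD 3 (0.0877), and it held without any other single pool.

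Within groups the 2 assays went up and down together. The deviations of miR-16-5p and miR-195a-5p from their group means correlated at r = 0.89 over the 12 pools, while the median over all pairs of microRNAs was -0.01 and 1.98% exceeded 0.8. Both assays of a pool share its RNA and its scaling. The erythroid markers miR-451a and miR-486, which are carried by red blood cells as miR-16 is, were the 2 of that list analysed here. Their summed level (log2) was 5.29 to 6.24 in WL, 5.93 to 6.44 in UL, 5.48 to 6.35 in UT and 5.30 to 6.64 in CD, so the groups overlapped. By relative level over the 12 pools, miR-451a followed miR-195a-5p (r = 0.71) more than miR-16-5p (r = 0.25). For miR-486 these correlations were -0.28 with miR-195a-5p and 0.24 with miR-16-5p. By deviations from group means, miR-451a had 0.69 with miR-195a-5p and 0.53 with miR-16-5p. For miR-486 the signs were the other way round, at 0.19 with miR-195a-5p and -0.097 with miR-16-5p. In WL against CD the log2 fold change was -0.53 for miR-451a and 0.92 for miR-486, neither called in limma. The part of either marker in the ratio was not tested.

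The ratio of miR-15a-5p to miR-15b-5p came next. It was 1.01, 1.60 and 1.39 in WL, 1.92, 1.43 and 1.14 in UL, 0.54, 0.52 and 0.74 in UT, and 1.76, 1.39 and 1.02 in CD. The UT pools were lower than those of every other group, and in 3.56% of all pairs of microRNAs the UT pools lay on one side of the rest. The exact permutation test gave p = 0.0353 and an adjusted p of 0.177. The ratio of miR-195a-5p to its cluster partner miR-497-5p was 5.52, 4.91 and 3.01 in WL, 5.36, 5.99 and 6.12 in UL, 5.42, 5.60 and 6.66 in UT, and 6.05, 6.35 and 5.99 in CD. The WL pools all lay below the CD pools, with WL 3 far below (adjusted p = 0.203 by the exact permutation test). In 11.2% of all pairs of microRNAs the WL pools lay on one side of CD. The other 7 pairs did not pass either.

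**Figure D3:**
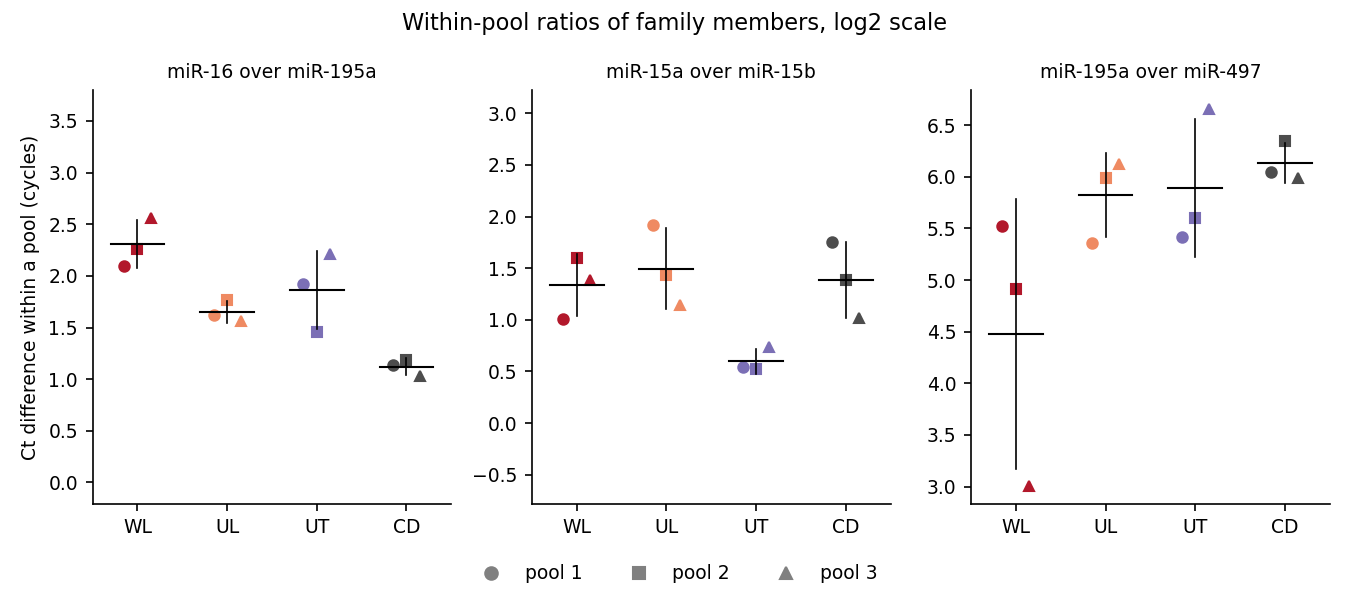
Ct difference within a pool (cycles, a log2 ratio) for miR-16-5p over miR-195a-5p, miR-15a-5p over miR-15b-5p and miR-195a-5p over miR-497-5p. Symbols are pools, horizontal lines group means and vertical lines ± 1 SD. In the left panel all 9 high-fat pools lie above the CD pools, which run from 1.03 to 1.19.

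Members of one cluster did not follow each other over the 12 pools. The correlation of relative levels, given as a description over pools that share their scaling, was -0.03 for miR-15a-5p and miR-16-5p, 0.20 for miR-15b-5p and miR-16-5p, and -0.44 for miR-195a-5p and miR-497-5p. The miR-195a-5p and miR-497-5p value was 0.14 over the 10 pools left without WL 3 and UT 2, so its sign rests on those pools. The 7 pairs of members that share no cluster ran from -0.19 for miR-15a-5p and miR-195a-5p to 0.66 for miR-15a-5p and miR-497-5p.

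Outside the family, 461 complete microRNAs were compared over the 12 pools. The most alike to miR-15a-5p were miR-148b-3p (r = 0.93), miR-335 (0.86) and miR-181a-1-3p (0.86). For miR-15b-5p they were miR-449a (0.78), miR-207 (0.75) and miR-301b-3p (0.73). For miR-16-5p they were miR-193a-3p (0.81), miR-26b-5p (0.77) and miR-346-3p (0.71). miR-195a-5p was closest to miR-714 (0.88), miR-199a-3p (0.85), a stromal microRNA, and miR-758-3p (0.84), and miR-497-5p to miR-219a-5p (0.93), miR-32-5p (0.93) and miR-139-5p (0.89). No microRNA appeared in more than 1 of these lists.

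The other strands of the family hairpins are normally the rarer product. Those analysed here were miR-15b-3p and miR-16-2-3p. miR-15b-3p had relative levels of 0.95, 1.53 and 0.35 in WL, 0.40, 1.29 and 0.95 in UL, 0.57, 1.50 and 1.58 in UT, and 1.21, 1.23 and 0.27 in CD, all overlapping. It did not follow miR-15b-5p over the pools (r = -0.31, n = 12). miR-16-2-3p measured -4.61 and -5.11 in WL, with no value in WL 3, -3.61, -4.79 and -3.09 in UL, -4.62, -3.05 and -2.79 in UT, and -4.44, -3.92 and -4.57 in CD. Its log2 fold changes against CD were -0.55 in WL (over 2 pools), 0.48 in UL and 0.82 in UT, none called in limma (adjusted p 0.956, 0.995 and 0.663). Leaving out 1 pool moved the WL value to -0.80 (without WL 1) to -0.30 (without WL 2), and each end rests on 1 WL pool. The UL value moved to 0.11 (without UL 3) to 0.96 (without UL 2). That in UT moved to 0.48 (without UT 3) to 1.40 (without UT 1).

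A further 4 microRNAs read by these assays carry the same seed or a near one. miR-322-5p has the seed of the family, miR-503 differs from it in the last base, and in miR-103-3p and miR-107-3p the core is shifted by a base. Both of the last come from introns of pantothenate kinase genes and are known for lowering insulin sensitivity in mouse liver and fat. Their sequences are again those of RefSeq with bases 2 to 8 in capitals.
miR-322-5p: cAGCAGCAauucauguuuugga
miR-503-5p: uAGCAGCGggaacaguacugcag
miR-103-3p: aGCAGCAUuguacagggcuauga
miR-107-3p: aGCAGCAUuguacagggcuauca

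miR-503, whose assay names no arm, had relative levels of -6.07, -6.00 and -5.36 in WL, -5.01, -5.59 and -7.48 in UL, -9.21, -9.42 and -7.47 in UT, and -10.74, -7.59 and -7.39 in CD. Each WL pool was above each CD pool, as in 5.82% of microRNAs, and UL 1 and UL 2 were above each CD pool too. These are late signals, with Ct values of 29.97 to 35.54. The log2 fold changes against CD were 2.76 in WL (SE 0.90, adjusted p 0.313 in limma) and 2.55 in UL (adjusted p 0.908 in limma), and neither passed. In UT the log2 fold change was -0.12. CD 1 was the latest signal, and without it the values were 1.68 in WL, 1.47 in UL and -1.21 in UT. miR-322-5p, from the same cluster on chromosome X, measured 3.44, 2.63 and 4.32 in WL, 2.76, 2.28 and 2.44 in UL, 2.11, 2.53 and 2.49 in UT, and 2.35, 3.41 and 2.62 in CD. Its WL pools overlapped those of CD and UL (log2 fold change 0.67 against CD, adjusted p 0.831 in limma, and 0.25 without WL 3). It followed miR-497-5p over the 12 pools (r = 0.83), and both were highest in WL 3. Over the 10 pools without WL 3 and UT 2 the correlation was 0.63.

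miR-103-3p measured 4.24, 3.31 and 3.98 in WL, 4.16, 3.56 and 3.52 in UL, 2.77, 3.70 and 2.95 in UT, and 3.76, 3.92 and 3.91 in CD. The UT pools all lay below CD, as did 6.88% of microRNAs, and the log2 fold change of -0.72 did not pass (SE 0.35, adjusted p 0.52 in limma). miR-107-3p measured 0.25, 1.12 and -2.23 in WL, -0.24, 0.85 and 1.36 in UL, -0.95, -1.55 and 0.03 in UT, and -0.22, -1.34 and -0.09 in CD. Its groups overlapped CD, and WL 3 was the lowest pool of all.

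**Figure D4:**
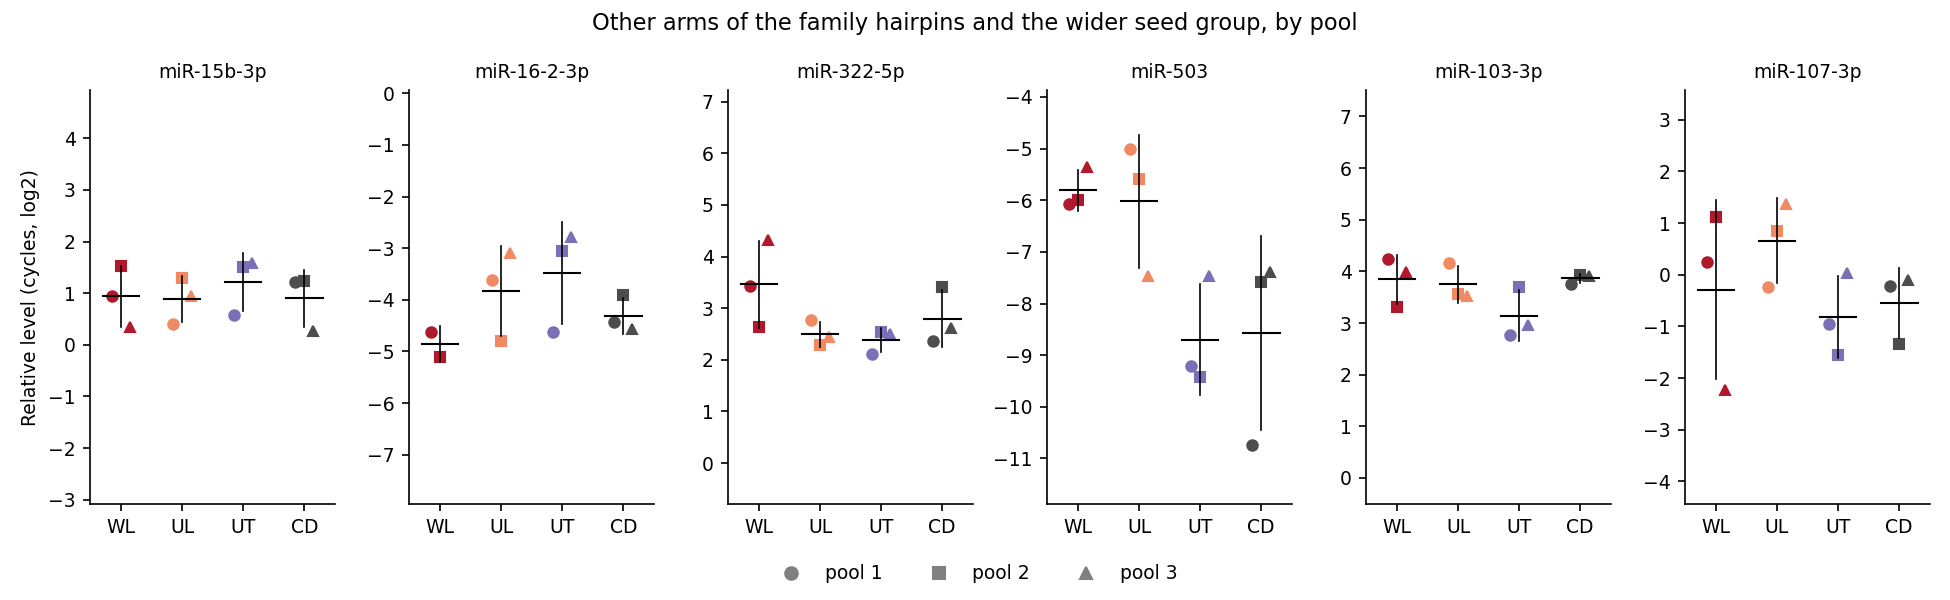
Relative level (cycles, log2 scale) by pool of miR-15b-3p and miR-16-2-3p, the other arms, and of miR-322-5p, miR-503, miR-103-3p and miR-107-3p. Symbols, lines and bars are pools, group means and ± 1 SD, and miR-16-2-3p has 2 pools in WL. The WL pools of miR-503 (-6.07 to -5.36) lie above its CD pools (-10.74 to -7.39), as in 5.82% of microRNAs.

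Other microRNAs of the same pathways, from fixed lists, were not called in any of the 5 comparisons by limma. Of all microRNAs, 0.0% to 1.39% were called in a comparison. The lowest adjusted p in limma was 0.0570 among repressors of G1/S regulators (UT against CD). Among promoters of S phase entry it was 0.0572 (WL against CD). Of 25 measured repressors of G1/S regulators, such as let-7b-5p and let-7c-5p, 17 were above 0 in WL against CD, 9 in UL and 6 in UT, where 43.5%, 43.7% and 48.8% of all microRNAs were. The medians of their log2 fold changes were 0.13, -0.09 and -0.18, beside -0.06, -0.07 and -0.01 over all microRNAs. let-7b-5p, a repressor of cell cycle genes, had 0.03 in WL, -0.43 in UL and -0.32 in UT, and let-7c-5p 0.02, -0.50 and -0.12. Of 13 microRNAs that promote entry into S phase, 10, 7 and 5 were above 0, with medians of 0.20, 0.04 and -0.13. Among them miR-21a-5p, which is abundant in many dividing cells, had 0.59 in WL, 0.10 in UL and 0.12 in UT. miR-93-5p, which represses the inhibitor p21, had 0.47, 0.09 and -0.74. Of 10 measured repressors of mTOR and its partners, 5, 3 and 2 were above 0 (medians -0.005, -0.22 and -0.30). miR-99a-5p, which represses mTOR itself, had 0.21, 0.09 and -0.29, and miR-199a-3p, another repressor of mTOR, -0.69, -0.20 and -0.50.

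Markers of other cell types were read in the same pools. The summed level (log2) of the 7 leukocyte microRNAs was 5.87 to 7.88 in WL, 5.50 to 6.16 in UL, 4.78 to 5.92 in UT and 5.54 to 6.47 in CD. That of the 5 epithelial microRNAs, which mark epididymal epithelium that can be cut with the pad, was 4.77 to 7.36 in WL, 5.00 to 6.44 in UL, 2.56 to 5.18 in UT and 4.20 to 7.12 in CD. The 4 smooth muscle and stromal microRNAs gave 7.82 to 8.14 in WL, 7.53 to 8.01 in UL, 7.35 to 7.95 in UT and 7.79 to 8.59 in CD. These ranges overlapped CD in every group, as did those of the erythroid, endothelial, muscle and neural lists. Yet in UT against CD 0 of 5 epithelial microRNAs were above 0, beside 48.8% of all microRNAs. Their median log2 fold change there was -2.44 (lowest adjusted p 0.280 in limma), beside -0.01 over all. In WL 4 of 5 were above 0 (median 0.44), and in UL 1 of 5 (median -0.12). The 2 endothelial microRNAs went opposite ways in UT against CD. Their log2 fold changes were -1.19 for miR-126a-3p and 1.36 for miR-126a-5p (adjusted p 0.395 and 0.0766 in limma). The 3 liver microRNAs gave 1.21 to 1.69 in WL, 2.08 to 2.61 in UL, 1.63 to 1.73 in UT and 1.82 to 2.42 in CD, with WL and UT below CD. The 4 microRNAs abundant in fat gave 7.75 to 8.92 in WL, 8.11 to 8.68 in UL, 8.06 to 8.21 in UT and 8.28 to 8.39 in CD, with UT below CD. Among single microRNAs, 6.88% had all UT pools below CD. The share with all WL pools below CD is not given here, and shares for summed lists were not computed. How unusual these gaps in the liver and fat lists are is therefore not known. No marker in these lists was called by limma in any comparison with CD. Their part in the values of the family was not tested.

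The authors' deposited table of fold changes gives miR-16-5p 0.839 for UT, 0.814 for UL and 0.745 for WL, and miR-195a-5p 1.38, 1.23 and 1.22. In the authors' deposited table a value above 1 stands for a later Ct and so for less RNA, since the deposited normalized ratio grew with Ct in every pool. The UT column of the authors' deposited table matched the 3 UT pools over CD in 506 of 506 assays. Its UL column matched UL 1, UT 2 and UT 3, and its WL column UL 1, UL 2 and UT 3, each in 506 of 506 assays. Whether the pool labels or the headings of the authors' deposited table are right was not settled. From the pools labelled WL, the deposited normalized values gave 0.775 for miR-16-5p and 1.86 for miR-195a-5p.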

How the data were processed

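MicroRNAs were measured by quantitative RT-PCR in 12 pools of epididymal fat. The authors deposited threshold cycles (Ct), a log2-scale measure in which 1 cycle is a 2-fold step if product doubles each cycle, per the file headers. They also deposited normalized values, which are ratios, and a table of fold changes, also ratios. The sources used here do not give the platform, chemistry or threshold rule. Members and lists were chosen with earlier results of these data known.

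Of 507 assays 1 repeated another and was dropped, leaving 504 microRNAs and 2 reference RNAs. The relative level of a microRNA was the mean Ct of its pool over the 466 microRNAs measured in all 12 pools, minus its own Ct. Levels were fitted in limma 3.58.1 (R 4.3.3) as 1 model of 4 groups, with two-sided tests, Benjamini-Hochberg adjustment over 504 microRNAs. A call needed an adjusted p of at most 0.05. The procedure was tested on simulated data. A filter (Ct under 35 in at least 3 pools) removed 0 microRNAs. Ct differences between 2 members in the same pool need no scaling, and were tested by an exact permutation test over all 369600 assignments of the pools to 4 groups of 3, adjusted over the 10 pairs. Python 3.11.15 and matplotlib 3.10.9 were used for these tests and the figures. The members, the other arms of their hairpins, their wider seed group and the 3 microRNAs most alike to each member were named. So were the 2 highest members of each pathway list. The lists of cell type markers were mostly given as summed levels. Alternatives covered the scaling, filter, variance model, pools left out and a replicate block. Leaving out pools for the other arms and the wider seed group was added after seeing the data. Of 18 same-number correlations between groups 7 exceeded 0.1 (range -0.27 to 0.26), so pool numbers were not treated as pairs. The number of pools limits the precision, and Ct values carry no read depth. Mature sequences and coordinates are from RefSeq (GRCm38.p6).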

Additional observations from a re-analysis of the deposited data

How the results depend on the processing

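Over 28 other settings, 0 members passed the threshold in any comparison, and the smallest adjusted p was 0.194 (miR-15b-5p, UT against CD, scaled to RNU-43, limma). Of 695 refitted log2 fold changes 658 kept their sign. The range of calls over all microRNAs was 0 to 6 in WL and in UL against CD, 1 to 15 in UT against CD, 0 to 1 in WL against UL, 0 to 13 in UL against UT and 0 to 15 in the F test, beside 3, 3, 7, 0, 0 and 2. Scaling to RNU-43 moved the median of all microRNAs to 0.73 in UT against CD, 0.30 in UL against CD, -0.40 in WL against UL and -0.41 in UL against UT, and U6-snRNA to 0.26 in WL against CD and 0.32 in WL against UL. U6-snRNA had no value in WL 3 and UT 1, so its setting used 10 pools and changed the pools as well as the scaling. The signs turned under RNU-43 in UL against CD for miR-15b-5p (0.29), miR-195a-5p (0.026) and miR-497-5p (0.33), in UT against CD for miR-15a-5p (0.33), miR-195a-5p (0.42) and miR-497-5p (0.66), in WL against UL for miR-15a-5p (-0.017) and miR-16-5p (-0.063), and in UL against UT for miR-497-5p (-0.33). miR-15a-5p in UL against CD turned with no scaling (-0.073), the deposited values (-0.028) and array weights (-0.14). miR-497-5p turned with neighbouring assays subtracted in UL against CD (0.095), and in UL against UT with no scaling (-0.13) and array weights (-0.066). In WL against UL, miR-16-5p turned with neighbouring assays subtracted (-0.077) and miR-195a-5p with U6-snRNA (0.20). In UL against UT, miR-195a-5p turned with the median (0.12), the deposited values (0.056), array weights (0.14) and without WL 3 and UT 2 (0.10). The cause of these turns was not tested.

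Leaving out each pool in turn, the log2 fold change ran in UL against CD from -0.31 to 0.29 for miR-15a-5p, -0.27 to 0.14 for miR-15b-5p, -0.050 to 0.40 for miR-16-5p and -0.19 to 0.10 for miR-497-5p. In UT against CD it ran from -0.35 to 0.17 for miR-497-5p, and in WL against UL from -0.055 to 0.51 for miR-16-5p. In UL against UT it ran from -0.46 to 0.076 for miR-16-5p, -0.28 to 0.12 for miR-195a-5p and -0.20 to 0.32 for miR-497-5p. The number of member pairs whose within-pool ratio passed ran from 0 to 1. With a replicate block (groups permuted within pool numbers, 13824 assignments) 0 of 10 pairs passed, and miR-16-5p over miR-195a-5p had an adjusted p of 0.122 by the exact permutation test. In limma the replicate block changed no call of a member. Groups of 3 pools were not screened for outlying pools. With 3 pools a group, the SE of a member's log2 fold change was 0.36 to 0.41.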

Other observations

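All Ct values of pool CD 1 were written with more than 2 decimals, and none of those of the other 11 pools. The sources used here do not give the reason, and its part in the comparisons with CD was not tested. Without CD 1 the ratio of miR-16-5p to miR-195a-5p had an adjusted p of 0.061 (exact permutation test over the 10 pairs).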
